A study of Homo sapiens with 9 samples.

Results

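The HOX cluster genes were followed in TC-71, a line established from Ewing sarcoma, a tumour of bone and soft tissue, and in 3 lines derived from it. Members were all genes whose probe sets on the Affymetrix HG-U133 Plus 2 array carry a single symbol of HOXA, HOXB, HOXC or HOXD followed by a number. There were 28 such genes among 19775 genes with a single-symbol probe set. Where a gene had several probe sets, the one with the highest mean of all 9 arrays was taken. TC-71 cells not resistant to agents against the IGF-1 receptor gave 3 biological replicates with 1 array each. TC/AEW was selected from TC-71 with NVP-AEW541, a kinase inhibitor of the receptor, in doses rising to 5 µM. Antibodies to the receptor gave the other lines, TC/AVE with AVE1642 in doses rising to 10 µg/ml and TC/CP with figitumumab, whose dose the labels do not state. Each selection lasted at least 6 months, no TC-71 cells kept in culture alongside were named, so that resistance and the long culture cannot be told apart. Each resistant line was represented by 2 arrays, which were technical replicates, so each was 1 line and 1 sample. The comparisons asked, as in the series' design, how each line and the 3 lines in common differed from the parental cells.

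HOX genes encode homeodomain transcription factors that set position along the body axis. They lie in clusters on 4 chromosomes, and the order of the genes in a cluster matches the order in which they are switched on, from the low-numbered anterior genes to the high-numbered posterior genes. In adult cells Polycomb complexes keep the unused genes silent, and Trithorax and MLL complexes keep the used ones active. Ewing sarcoma is known for strong expression of posterior HOXD genes, which are active in the developing limb.

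The line's identity was checked against marker genes. Of 7 Ewing sarcoma markers measured, 7 reached a log2 level of 5, among them CD99 (12.8 to 13.0 over the 9 arrays) and NKX2-2 (8.61 to 9.40). Another of the 7, LIPI, read 7.09, 6.48 and 7.45 in TC-71 and 5.13 to 5.86 on the line arrays, 2-fold or more below the TC-71 mean in each line and not past the test. Of 5 blood markers measured, 1 reached 5 (HBB) and PTPRC did not (3.88 to 4.08), and of 4 epithelial markers 1 reached 5 (KRT5, 5.22 to 5.49) and EPCAM did not (3.46 to 3.93). All 5 fibroblast markers reached 5, with a summed log2 level of 29.90 to 34.66 in TC-71, 38.00 and 38.11 in TC/AEW, 30.13 and 30.38 in TC/AVE, and 33.55 and 33.53 in TC/CP. TC/AEW thus lay above all other arrays, with 5 of 5 markers above the TC-71 mean and 2 of them by 2-fold or more. The array medians were 5.39 to 5.45, and HBB, a red-cell gene, read 5.74 to 6.13, so a reading near or below that of HBB does not by itself show expression, and a difference that involves such readings is one of signal. Precision is limited by the small number of arrays, and p-values reflect the spread among these 6 samples alone.

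By the single-symbol rule HOXB was covered in full with 10 of 10 genes, HOXC with 9 of 9, and HOXD with 8 of 9. The HOXA cluster was covered by HOXA2 alone of 11 genes, and the other HOXA genes were not analysed here. HOXD3 had only probe sets shared with HOXD4 and LOC401021. The brightest of these read 7.21, 7.42 and 7.34 in TC-71, 7.29 and 7.55 in TC/AEW, 7.71 and 7.58 in TC/AVE, and 7.80 and 7.71 in TC/CP. A level of 5 on at least 2 arrays was reached by 25 of the 28 genes, comprising 10 HOXB, 9 HOXC and 6 HOXD genes, and 24 of them were at 5 or above on all 9 arrays. All the counts of comparisons below are over these 25.

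**Figure D1:**
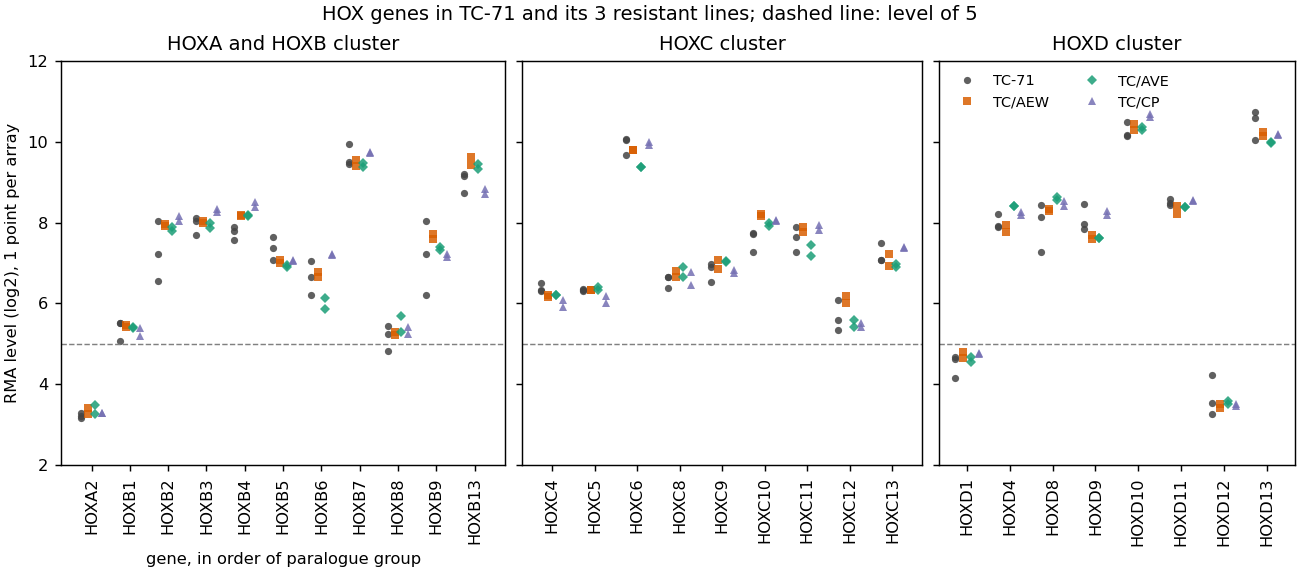
RMA level on the log2 scale (vertical axis) of each of the 28 HOX genes (horizontal axis, by paralogue group) in TC-71 and the 3 resistant lines, 1 point per array, with the level of 5 as a dashed line. HOXA2, HOXD1 and HOXD12 lie under the line on all 9 arrays, and in most genes the points of the lines sit close to the 3 TC-71 points.

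The 3 genes under 5 were HOXA2, a hindbrain gene (3.15 to 3.49), HOXD1, the most anterior HOXD gene (4.14 to 4.79), and HOXD12, a posterior limb gene (3.25 to 4.21). HOXD1 came nearest to the level from below. Just inside it were HOXB1, which patterns a hindbrain segment (5.07 to 5.50), and HOXB8, which acts in trunk and blood cells (4.81 to 5.68, under 5 on 1 array, that of TC-71 sample 1). HOXD12 is placed in RefSeq's gene order between HOXD13 and HOXD11, both of which read above 8 on every array. Its reading comes from 1 probe set.

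The promoters of these 3 neighbouring HOXD genes are shown because the middle one stayed under 5 while both of its neighbours did not. They are RefSeq sequences in GRCh38.p14, 250 bases before to 50 bases after the gene start, on the + strand, 5′ to 3′, with each CG in capitals. They lie at chr2:176092471-176092770 (HOXD13), chr2:176099545-176099844 (HOXD12) and chr2:176107030-176107329 (HOXD11).
HOXD13: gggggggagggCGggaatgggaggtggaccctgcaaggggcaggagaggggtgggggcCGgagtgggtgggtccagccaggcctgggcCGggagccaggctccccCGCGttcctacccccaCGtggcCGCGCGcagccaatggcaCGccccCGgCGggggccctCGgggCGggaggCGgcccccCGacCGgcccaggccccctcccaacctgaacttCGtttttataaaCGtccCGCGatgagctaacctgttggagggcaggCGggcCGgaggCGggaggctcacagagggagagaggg
HOXD12: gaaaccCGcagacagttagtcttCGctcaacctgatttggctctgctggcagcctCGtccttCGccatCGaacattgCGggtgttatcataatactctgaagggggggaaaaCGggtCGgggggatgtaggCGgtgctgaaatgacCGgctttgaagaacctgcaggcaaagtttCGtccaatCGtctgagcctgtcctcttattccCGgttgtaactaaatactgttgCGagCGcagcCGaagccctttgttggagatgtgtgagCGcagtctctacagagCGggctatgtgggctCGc
HOXD11: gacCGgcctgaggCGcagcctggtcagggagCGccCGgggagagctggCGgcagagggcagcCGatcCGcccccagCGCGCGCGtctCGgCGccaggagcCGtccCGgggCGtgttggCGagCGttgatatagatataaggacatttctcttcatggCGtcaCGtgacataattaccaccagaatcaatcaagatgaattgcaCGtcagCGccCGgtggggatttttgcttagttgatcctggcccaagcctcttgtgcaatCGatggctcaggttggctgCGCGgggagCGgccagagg
The HOXD13 window held 24 CG, that of HOXD12 19 and that of HOXD11 27, against a median of 14 over 35116 promoters of the same length. The window of HOXD12 had more CG than 57.1% of them, and that of HOXD13 more than 66.1%. HOXD1, also under 5, had 36 CG, and HOXD4, at 7.77 or above on every array, had 4, so the order of the CG counts was not the order of reading at 5. On both strands, overlaps allowed, TATAAA was found 2 times in the HOXD13 window (11.5% of all promoters hold it), where the 2 matches overlap on opposite strands. TGATNNAT, a form of the site of HOX and PBX pairs, was found 1 time in the HOXD11 window (7.4% of all promoters). GGAAGGAA, a repeat of the ETS core bound by the Ewing fusion protein, was found 0 times in the 3 windows (3.67% of all promoters). Promoter entries were matched for 11 of the 28 genes, and HOXC4 and HOXC5 share one.

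No HOX gene passed the test in any comparison. With limma's moderated test and Benjamini-Hochberg adjustment over 14172 genes, 0 of 25 HOX genes were at an adjusted p under 0.05 in any single line against TC-71, and the share of all genes was 0% for each line. In the 3 lines in common against TC-71, 0 of 25 passed, against 0.0212% of all genes. At an unadjusted p under 0.05, limma gave 0 HOX genes in TC/AEW (3.52% of all genes), 0 in TC/AVE (7.23%), 1 in TC/CP, which was HOXB4 (4.93%), and 2 in the lines in common, HOXB4 and HOXC10 (8.39%). The shares of HOX genes, 0%, 0%, 4% and 8%, were at or below those of all genes.

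At the median, sizes were not smaller than those of all genes. A difference from TC-71 of 2-fold or more was reached by 0 of 25 HOX genes in TC/AEW (2.22% of all genes), in TC/AVE (3.68%), in TC/CP (3.19%) and in the lines in common (1.58%). With 25 genes, a count of 0 is near these shares. The log2 differences ran from -0.45 to 0.67 in TC/AEW, from -0.63 to 0.65 in TC/AVE and from -0.39 to 0.83 in TC/CP. The median size without sign was 0.18 in TC/AEW against 0.17 over all genes, 0.29 against 0.20 in TC/AVE, and 0.24 against 0.19 in TC/CP. A limit of 2-fold in both directions was met by the 95% interval of 13 of 25 HOX genes in TC/AEW (64.7% of all genes), 10 in TC/AVE (59.3%), 13 in TC/CP (61.8%) and 22 in the lines in common (85.8%). Between lines the count was 15 for TC/AEW against the antibody-selected lines (64.6%) and 7 for TC/AVE against TC/CP (40%). For the remaining genes a 2-fold difference was within the interval. In the single-line comparisons the spread came from TC-71 alone and each line was assumed to vary like it.

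**Figure D2:**
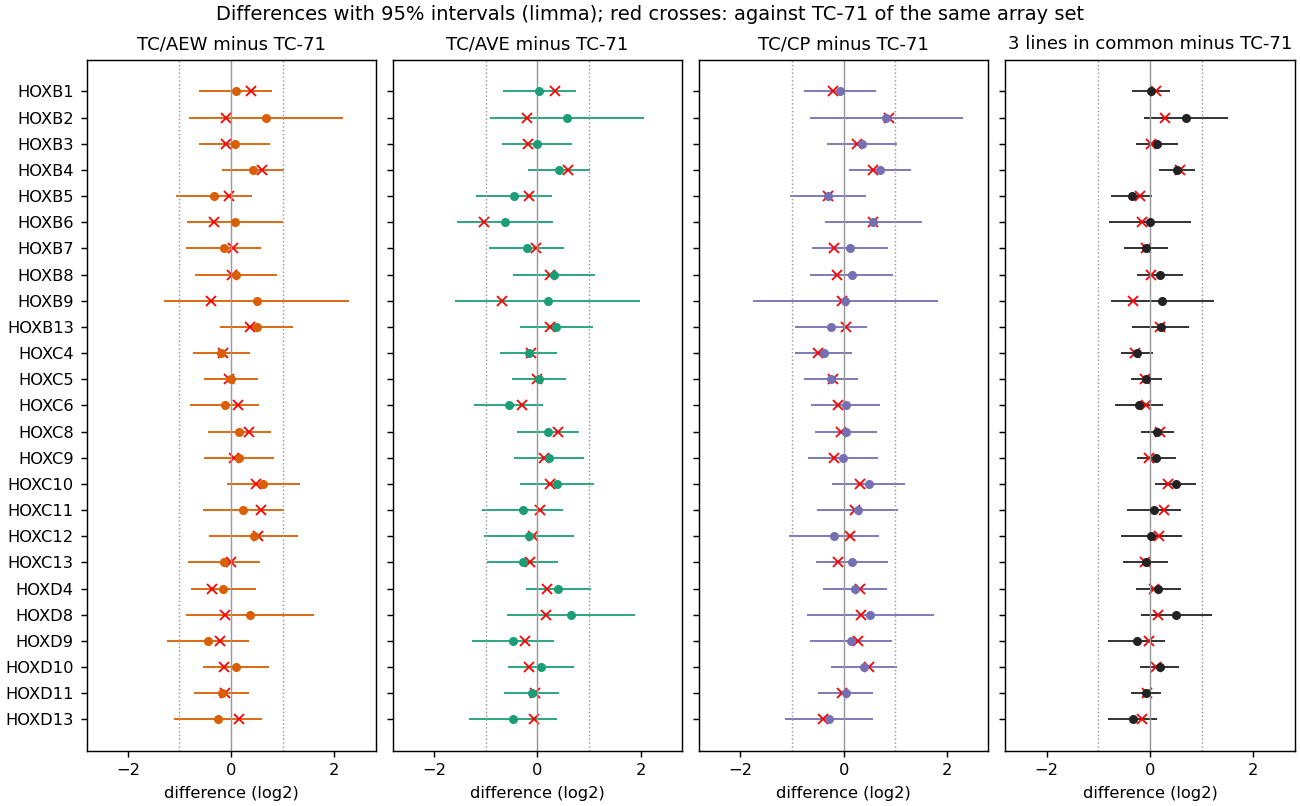
Log2 difference from TC-71 (horizontal axes) of the 25 HOX genes (vertical axis) for each line and for the 3 lines in common, with limma's 95% intervals as bars, and, as red crosses, the difference from the TC-71 sample of the same array set (for the lines in common, the fit with the array set as a block). No point lies beyond the dotted lines at 2-fold, and the 1 cross that does is HOXB6 in TC/AVE.

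Differences were spread over both signs. Of the 25 genes, 15 were above 0 in TC/AEW (50.2% of all genes), 13 in TC/AVE (47.2%), 17 in TC/CP (49.6%) and 16 in the lines in common (48.9%). These comparisons share the same 3 TC-71 samples. In HOXB the median difference was 0.09 in TC/AEW, 0.12 in TC/AVE and 0.14 in TC/CP, in HOXC 0.15, -0.17 and 0.03, and in HOXD -0.16, -0.02 and 0.18, beside medians over all genes of 0.00, -0.02 and 0.00.

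The arrays of a line lay wholly outside the TC-71 values for 6 of 25 HOX genes in TC/AEW (29.8% of all genes), with 3 above (15.4%) and 3 below (14.3%). In TC/AVE the count was 14 of 25 (39.4% of all genes), with 6 above (19.6%) and 8 below (19.8%), and in TC/CP 7 of 25 (38.2%), with 5 above (21.2%) and 2 below (17%). All the arrays of all 3 lines were outside on the same side for 3 genes, HOXB4 and HOXC10 above (5.2% of all genes) and HOXC4 below (4.33%), or 9.53% of all genes in either direction. The share in TC/AVE, 56%, was above that of all genes and the shares in TC/AEW, 24%, and TC/CP, 28%, were below it. These differences from all genes were not tested.

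Among the anterior HOXB genes, HOXB4, a regulator of blood stem cell growth, had the largest difference relative to its spread in the lines in common. It read 7.78, 7.56 and 7.88 in TC-71, 8.15 and 8.18 in TC/AEW, 8.18 and 8.15 in TC/AVE, and 8.38 and 8.51 in TC/CP. All 6 arrays of the lines lay above all 3 TC-71 arrays. The lines in common were higher by 0.52 ± 0.15 (SE, 6 samples), 1.43-fold, with limma's unadjusted p = 0.0101 and adjusted p = 0.417. TC/CP alone was higher by 0.70 ± 0.23, with limma's adjusted p = 0.896. Against the TC-71 sample of the same array set, the difference was 0.61 in TC/AEW, 0.60 in TC/AVE and 0.56 in TC/CP. These values rest on single TC-71 arrays, and TC/AEW and TC/AVE share sample 2, the lowest of the 3. Against all of TC-71 the differences were 0.43, 0.42 and 0.70. HOXB4 was read by 1 probe set.

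HOXB2, a hindbrain and facial-nerve gene, read 6.55, 8.03 and 7.22 in TC-71, 7.91 and 7.97 in TC/AEW, 7.88 and 7.79 in TC/AVE, and 8.16 and 8.03 in TC/CP. The groups overlapped, because TC-71 sample 2 read as high as the lines while samples 1 and 3 read lower. HOXB2 had the largest mean difference of the 25 genes in TC/AEW (0.67), TC/CP (0.83) and the lines in common (0.69 ± 0.35, limma's adjusted p = 0.660), which was 0.29 with the array set as a block. Within the array set the difference was -0.09 in TC/AEW, -0.19 in TC/AVE and 0.87 in TC/CP. Its size in TC/AEW and TC/AVE thus rested on TC-71 samples from other sets. HOXB3, its neighbour, read 7.68, 8.12 and 8.05 in TC-71, 8.03 and 8.0 in TC/AEW, 7.87 and 8.0 in TC/AVE, and 8.33 and 8.27 in TC/CP, with TC/CP alone above all of TC-71. The second HOXB3 probe set, at a mean of 5.63, gave -0.11 for TC/CP, beside 0.35 from the chosen one.

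HOXB1 read 5.50, 5.07 and 5.50 in TC-71 and 5.19 to 5.47 in the lines, inside the parental range. HOXB5, a gene of gut and vessel development, read 7.64, 7.08 and 7.37 in TC-71, 7.08 and 6.99 in TC/AEW, 6.94 and 6.89 in TC/AVE, and 7.05 and 7.08 in TC/CP. TC/AVE lay below every TC-71 sample, single arrays of the other lines reached the lowest one, and the lines in common differed by -0.36 ± 0.17 (limma's adjusted p = 0.632), or -0.19 with the array set as a block. Its second probe set gave -0.04.

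HOXB6, a trunk and limb-field gene, was the 1 member of 25 with a 2-fold difference between lines, that of TC/AVE and TC/CP (4.72% of all genes). It read 6.21, 7.04 and 6.65 in TC-71, 6.65 and 6.77 in TC/AEW, 5.86 and 6.14 in TC/AVE, and 7.21 and 7.20 in TC/CP. TC/AVE lay below and TC/CP above every TC-71 sample, while TC/AEW lay among them, and the TC/AVE readings were near those of HBB. TC/AVE minus TC/CP was -1.21 ± 0.44, a 2.31-fold difference, with limma's unadjusted p = 0.0419 (5.78% of all genes) and adjusted p = 0.852, and 0 of 25 HOX genes passed after adjustment in that comparison (0% of all genes). The second HOXB6 probe set, at 4.93 to 5.61, gave -0.29. TC/AVE and TC/CP are in different array sets, so line and set cannot be told apart in their direct comparison. Against the TC-71 sample of its array set, TC/AVE differed by -1.04 and TC/CP by 0.56. Between the same lines 4 of 5 fibroblast markers were lower in TC/AVE, with a median difference of -1.46, and their part in the HOXB6 value was not tested.

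The next HOXB genes showed less. HOXB7, linked to tumour cell growth, read 9.49, 9.44 and 9.94 in TC-71, 9.41 and 9.55 in TC/AEW, 9.47 and 9.36 in TC/AVE, and 9.76 and 9.73 in TC/CP. HOXB8 read 4.81, 5.24 and 5.44 in TC-71, 5.30 and 5.21 in TC/AEW, 5.68 and 5.30 in TC/AVE, and 5.23 and 5.40 in TC/CP. In both genes every line overlapped TC-71.

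HOXB9, a thoracic patterning gene, had the widest spread within the parental line. It read 6.21, 8.04 and 7.22 in TC-71, 7.60 and 7.71 in TC/AEW, 7.40 and 7.32 in TC/AVE, and 7.15 and 7.22 in TC/CP, so all 3 lines lay inside the TC-71 range of 1.83. Its second probe set read 6.33, 7.89 and 6.81 in TC-71, the same order. Within the array set, the difference was -0.38 in TC/AEW, -0.68 in TC/AVE and -0.04 in TC/CP, beside 0.50, 0.20 and 0.03 against all of TC-71.

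HOXB13, a prostate and hindgut gene at the posterior end of the cluster, read 9.19, 9.14 and 8.73 in TC-71, 9.41 and 9.62 in TC/AEW, 9.33 and 9.44 in TC/AVE, and 8.83 and 8.72 in TC/CP. TC/AEW and TC/AVE lay above all TC-71 samples, and TC/CP overlapped them. The differences were 0.50 ± 0.27, 0.36 ± 0.27 and -0.25 ± 0.27, and within the array set 0.37, 0.24 and 0.05. The second probe set of the gene gave -0.17, -0.23 and 0.05, the other sign in each line, so no direction can be given.

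In the HOXC cluster HOXC10, a gene of lumbar spinal cord and hindlimb, had the largest differences from TC-71 in TC/AEW and in the lines in common. It read 7.26, 7.71 and 7.73 in TC-71, 8.21 and 8.17 in TC/AEW, 7.98 and 7.90 in TC/AVE, and 8.05 and 8.04 in TC/CP. All 6 line arrays lay above all TC-71 arrays. The lines in common were higher by 0.49 ± 0.17 (SE, 6 samples), 1.41-fold, with limma's unadjusted p = 0.0211 and adjusted p = 0.498, and by 0.34 with the array set as a block. Within the array set the difference was 0.49 in TC/AEW, 0.24 in TC/AVE and 0.32 in TC/CP, beside 0.63, 0.38 and 0.48 against all of TC-71. HOXC10 was read by 1 probe set.

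HOXC4, an anterior gene active in neck and lymphoid cells, was the 1 HOX gene below TC-71 on every line array. It read 6.29, 6.34 and 6.50 in TC-71, 6.21 and 6.17 in TC/AEW, 6.21 and 6.21 in TC/AVE, and 5.91 and 6.07 in TC/CP. The TC/CP readings were within the range of HBB, so the difference there is one of signal. The gap to the lowest TC-71 array was small in TC/AEW and TC/AVE, and the lines in common differed by -0.25 ± 0.13 (limma's adjusted p = 0.681). HOXC5, which lies beside it, read 6.32, 6.36 and 6.30 in TC-71, 6.32 and 6.32 in TC/AEW, 6.32 and 6.40 in TC/AVE, and 6.0 and 6.17 in TC/CP, with TC/CP alone below TC-71.

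HOXC6, a brachial and thoracic gene, read 10.06, 9.66 and 10.06 in TC-71, 9.80 and 9.81 in TC/AEW, 9.38 and 9.37 in TC/AVE, and 10.00 and 9.93 in TC/CP. TC/AVE lay below every TC-71 sample and the other 2 lines overlapped them. TC/AVE differed from TC-71 by -0.56 ± 0.26 (limma's adjusted p = 0.755) and by -0.29 within the array set. HOXC8, a gene of the brachial spinal cord, read 6.66, 6.38 and 6.66 in TC-71 and 6.46 to 6.90 in the lines. HOXC9, which marks thoracic spinal cord, read 6.53, 6.89 and 6.98 in TC-71 and 6.76 to 7.07 in the lines. Of these 2 genes, HOXC9 in TC/AVE (7.04 and 7.02) was the 1 case of a line with both arrays outside the TC-71 range.

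HOXC11, a posterior gene of limb and kidney, read 7.88, 7.26 and 7.65 in TC-71, 7.89 and 7.77 in TC/AEW, 7.45 and 7.17 in TC/AVE, and 7.81 and 7.93 in TC/CP, with every line overlapping TC-71. HOXC12 read 6.07, 5.57 and 5.34 in TC-71, 6.02 and 6.18 in TC/AEW, 5.41 and 5.57 in TC/AVE, and 5.42 and 5.52 in TC/CP. Readings of HOXC12 above 6 were those of TC/AEW and TC-71 sample 1. HOXC13, a hair and nail gene, read 7.07, 7.08 and 7.50 in TC-71, 6.93 and 7.23 in TC/AEW, 6.89 and 6.98 in TC/AVE, and 7.40 and 7.37 in TC/CP. TC/AVE lay just below the TC-71 range in HOXC13, and HOXC12 differed most between TC/AEW and the 2 antibody-selected lines, by 0.61 ± 0.36. The HOXC12 readings of the antibody-selected lines were below the range of HBB, so this is a difference in signal. In that comparison, 0 of 25 HOX genes passed limma's test after adjustment (0% of all genes) and 0 before it (1.81%), and 0 differed by 2-fold (1.28%).

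**Figure D3:**
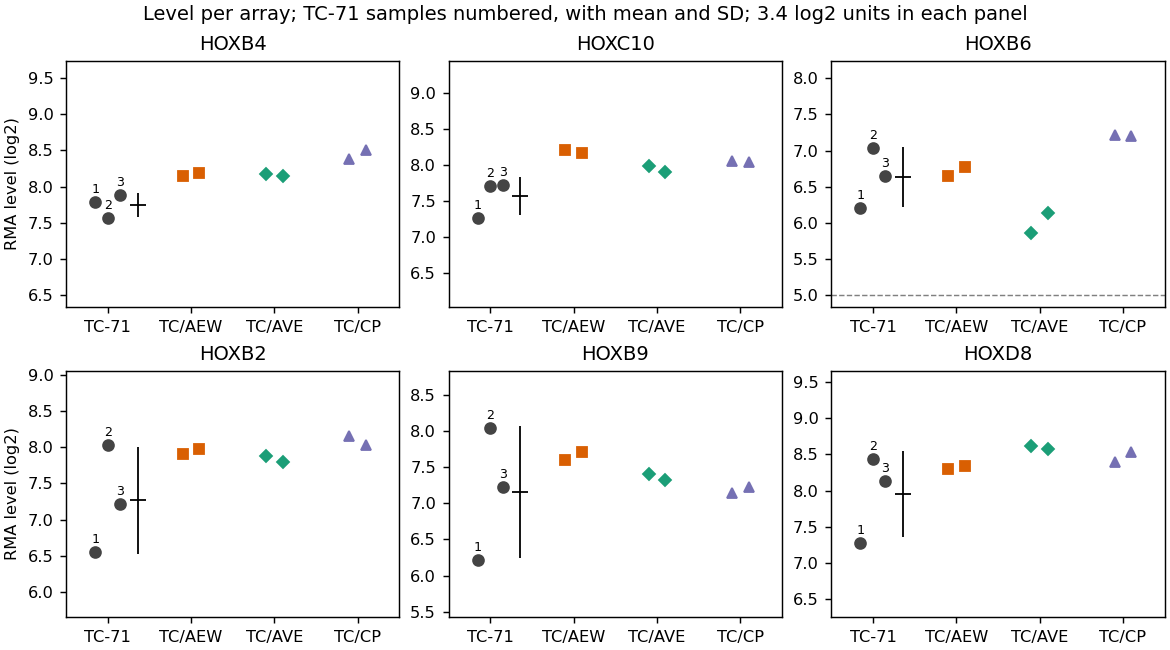
RMA level on the log2 scale (vertical axes) of HOXB4, HOXC10, HOXB6, HOXB2, HOXB9 and HOXD8 on each array of TC-71 (numbered samples, with mean and SD) and the 3 lines (horizontal axes), each panel spanning the same number of log2 units. HOXB4 and HOXC10 read higher on all 6 line arrays than on any TC-71 array, and in HOXB2, HOXB9 and HOXD8 TC-71 sample 1 is the lowest point.

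In the HOXD cluster the posterior genes known from Ewing sarcoma were read in every sample. HOXD13, the digit gene, read 10.73, 10.05 and 10.58 in TC-71, 10.14 and 10.24 in TC/AEW, 10.00 and 9.96 in TC/AVE, and 10.16 and 10.19 in TC/CP. TC/AVE lay just below the TC-71 range and the other lines lay within it. The lines in common differed by -0.34 ± 0.20 (limma's adjusted p = 0.724), or -0.15 with the array set as a block, and the other 2 probe sets of HOXD13 gave -0.16 and -0.20. In TC/CP those 2 probe sets gave -0.42 and -0.62, beside -0.28 from the chosen one. Within the array set the chosen probe set gave 0.15 in TC/AEW, -0.06 in TC/AVE and -0.41 in TC/CP.

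HOXD11, a forearm and kidney gene, read 8.49, 8.43 and 8.57 in TC-71, 8.22 and 8.42 in TC/AEW, 8.39 and 8.38 in TC/AVE, and 8.55 and 8.53 in TC/CP, a range over the 6 samples of 0.25, with TC/AEW and TC/AVE just below TC-71. HOXD10, a hindlimb and lumbar gene, read 10.13, 10.50 and 10.16 in TC-71, 10.29 and 10.44 in TC/AEW, 10.35 and 10.30 in TC/AVE, and 10.70 and 10.62 in TC/CP. TC/CP lay above TC-71 by 0.39 ± 0.25. The other probe sets of HOXD10 gave -0.44 and -0.05 for TC/CP, so its sign was not shared between probe sets.

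HOXD9, also a limb gene, read 8.46, 7.85 and 7.97 in TC-71, 7.59 and 7.70 in TC/AEW, 7.62 and 7.61 in TC/AVE, and 8.28 and 8.19 in TC/CP. TC/AEW and TC/AVE lay below the TC-71 range and TC/CP inside it. TC/AEW differed from TC-71 by -0.45 ± 0.31 and TC/AVE by -0.48 ± 0.31 (limma's adjusted p = 0.868 for TC/AVE), and within the array set by -0.21 and -0.23. HOXD8, a trunk gene, read 7.28, 8.44 and 8.13 in TC-71, 8.29 and 8.34 in TC/AEW, 8.62 and 8.57 in TC/AVE, and 8.40 and 8.54 in TC/CP. TC/AVE alone lay above all of TC-71, by 0.65 ± 0.48 on average and by 0.16 within the array set.

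HOXD4, an anterior hindbrain gene, read 7.88, 8.22 and 7.91 in TC-71, 7.77 and 7.94 in TC/AEW, 8.42 and 8.40 in TC/AVE, and 8.20 and 8.25 in TC/CP. TC/AVE lay above all of TC-71, by 0.40 ± 0.24 (limma's adjusted p = 0.837) and by 0.19 within the array set. Its second probe set read 6.59, 6.92 and 6.43 in TC-71 and 7.77 and 7.52 in TC/AVE, a difference of 1.00. Both of these probe sets had TC/AVE above the other lines, while the brightest one shared with HOXD3 read highest in TC/CP.

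The 3 samples of the parental line also differed among themselves. A TC-71 range of 1 log2 unit or more was seen in 3 of 25 HOX genes, HOXB9, HOXB2 and HOXD8, and in 8.38% of all genes. In each of these 3 genes sample 1, the single array of its array set, was lowest and sample 2 highest. These counts are for the chosen probe sets. Another probe set of HOXD10 read 9.73, 8.78 and 8.08 in TC-71, with sample 1 highest. Sample 1 was lowest in 12 of the 25, sample 2 in 10 and sample 3 in 3, and over all 14172 genes in 6051, 5591 and 2530. The fibroblast markers COL3A1, DCN and LUM, 3 of the 5 in the list, had the same order in TC-71 as HOXB9, HOXB2 and HOXD8. LUM read 3.55, 6.51 and 5.61. So ordered, too, was 1 of 7 Ewing sarcoma markers. Of the 25 HOX genes, 7 had this order, HOXB9, HOXB2 and HOXD8 among them. The share of all genes with this order was not counted, and the part of the markers in the HOX values was not tested. The TC-71 range was wider than the range of the 3 lines in 16 of 25 HOX genes, 64%, against 62.3% of all genes. The means of all 3 lines lay inside the TC-71 range for 3 HOX genes, HOXB1, HOXB9 and HOXC11, which is 12% against 23.9% of all genes, although single arrays of each line lay just outside it for HOXC11. The technical replicates of a line differed by a median of 0.108 in TC/AEW, 0.0807 in TC/AVE and 0.0750 in TC/CP over the HOX genes.

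The array files fell by name into 3 sets, with TC-71 sample 2, TC/AEW and TC/AVE in one and TC-71 sample 3 and TC/CP in another. Compared within the set, the sign turned in 9 of 25 HOX genes in TC/AEW (29.9% of all genes), 4 in TC/AVE (26.7%) and 9 in TC/CP (19%). Among the 9 HOX genes with several probe sets at a mean of 5 or more, the sign was shared by all of a gene's probe sets in 1 gene for TC/AEW, 6 for TC/AVE and 4 for TC/CP.

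HOX proteins bind DNA with TALE cofactors of the PBX, MEIS and PKNOX families. The TALE list also held TGIF1 and TGIF2, of other TALE families. In limma's test 0 of its 10 genes measured of 11 listed passed in any comparison, in either direction. Their median difference was 0.00 in TC/AEW, -0.20 in TC/AVE and 0.02 in TC/CP. Of 4 other cofactors and partners, 0 passed. The Polycomb list gave 0 of 27 measured of 32, and the Trithorax and MLL list 0 of 19 of 20, with unadjusted counts of 1 and 1 in TC/AEW (3.52% of all genes), 2 and 1 in TC/AVE (7.23%), and 3 and 0 in TC/CP (4.93%). The median Polycomb difference was -0.10, -0.13 and 0.14 in the 3 lines, and the median Trithorax and MLL difference -0.16, -0.09 and 0.03.

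In the Polycomb list 1 gene of 27 differed by 2-fold or more from TC-71 in TC/CP (3.19% of all genes), 1 in TC/AVE (3.68%) and 0 in TC/AEW (2.22%). MTF2, which helps place the EZH2 complex, read 10.24, 10.39 and 10.48 in TC-71 and 11.50 and 11.45 in TC/CP, a difference of 1.10 ± 0.22 (limma's adjusted p = 0.520). CBX2, a Polycomb subunit that compacts chromatin, read 9.84, 8.93 and 9.78 in TC-71 and 8.40 and 8.47 in TC/AVE, a difference of -1.08 ± 0.42 (limma's adjusted p = 0.693), or -0.49 within the array set. Both lay outside the TC-71 range in the line named, and neither passed the test. CBX7, another Polycomb subunit, was named after its values were seen. It read 4.90, 5.34 and 5.26 in TC-71, 6.21 and 6.09 in TC/AEW, 6.01 and 5.93 in TC/AVE, and 5.87 and 6.04 in TC/CP. CBX7 was higher on all 6 line arrays (5.2% of all genes), by 0.86 ± 0.16 in common (limma's adjusted p = 0.224), with TC-71 below the level of HBB. In the same list PHC3 also lay above TC-71 on all line arrays, by 0.67 ± 0.17 in common. PCGF3 (-0.41 ± 0.12) and ASXL1 (-0.53 ± 0.16) lay below TC-71 on all of them (4.33% of all genes).

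Retinoic acid switches on HOX genes from the anterior end. Of 18 upstream genes measured, 14 reached 5 and 0 passed limma's test, with unadjusted counts of 1 in TC/AEW (3.52% of all genes), 0 in TC/AVE (7.23%) and 1 in TC/CP (4.93%). ALDH1A1, which makes retinoic acid, read 7.37, 8.36 and 7.97 in TC-71, 8.98 and 9.13 in TC/AEW, 8.19 and 8.19 in TC/AVE, and 6.48 and 6.55 in TC/CP. It lay above TC-71 by 1.16 ± 0.42 in TC/AEW and differed by -1.39 ± 0.42 in TC/CP (limma's adjusted p = 0.832 for TC/CP), and within the array set by 0.69 and -1.46. CYP26B1, which degrades retinoic acid, read 9.51, 8.08 and 9.14 in TC-71 and 10.15 and 10.13 in TC/CP, higher by 1.23 ± 0.58. Of the other enzymes of the same 2 families, ALDH1A2 read 5.66 to 6.16 over the 9 arrays, and ALDH1A3 (3.99 to 4.94) and CYP26A1 (4.22 to 4.65) were under 5 on all of them.

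Of 11 noncoding RNAs of the clusters with a probe set, 8 reached 5 and 0 passed limma's test, with unadjusted counts of 0 in TC/AEW (3.52% of all genes), 2 in TC/AVE (7.23%) and 1 in TC/CP (4.93%). HOTAIR, transcribed from the HOXC cluster and studied as a partner of Polycomb, read 3.49, 5.04 and 4.55 in TC-71, 5.28 and 5.73 in TC/AEW, 3.71 and 3.75 in TC/AVE, and 5.94 and 5.97 in TC/CP. TC/AEW and TC/CP lay above all TC-71 samples, by 1.15 ± 0.61 and 1.59 ± 0.61, and TC/AVE lay within them. Within the array set these differences were 0.47 and 1.41. Of the TC-71 samples, 2 read under 5, as did TC/AVE, and no array read above the range of HBB, so these are differences in signal.

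HAGLR, a noncoding RNA of the anterior end of HOXD, and HOXD-AS2, an antisense RNA of the same cluster, were chosen after their values were seen. HAGLR read 5.44, 5.56 and 5.86 in TC-71 and 6.19 and 6.55 in TC/AVE, higher by 0.75 ± 0.26 (limma's adjusted p = 0.631), with the TC-71 readings near or below HBB. This was the line in which both single-symbol HOXD4 probe sets read highest, while the brightest one shared with HOXD3 read highest in TC/CP. HOXD-AS2 read 8.17, 8.26 and 8.09 in TC-71, 7.70 and 7.84 in TC/AEW, 7.47 and 7.55 in TC/AVE, and 7.74 and 7.80 in TC/CP. HOXD-AS2 thus lay below TC-71 on all 6 line arrays (4.33% of all genes), with a difference of -0.49 ± 0.13 in common (limma's adjusted p = 0.397). Whether the signals of antisense RNAs and of their partner genes are kept apart depends on the probe sets, and was not tested.

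**Figure D4:**
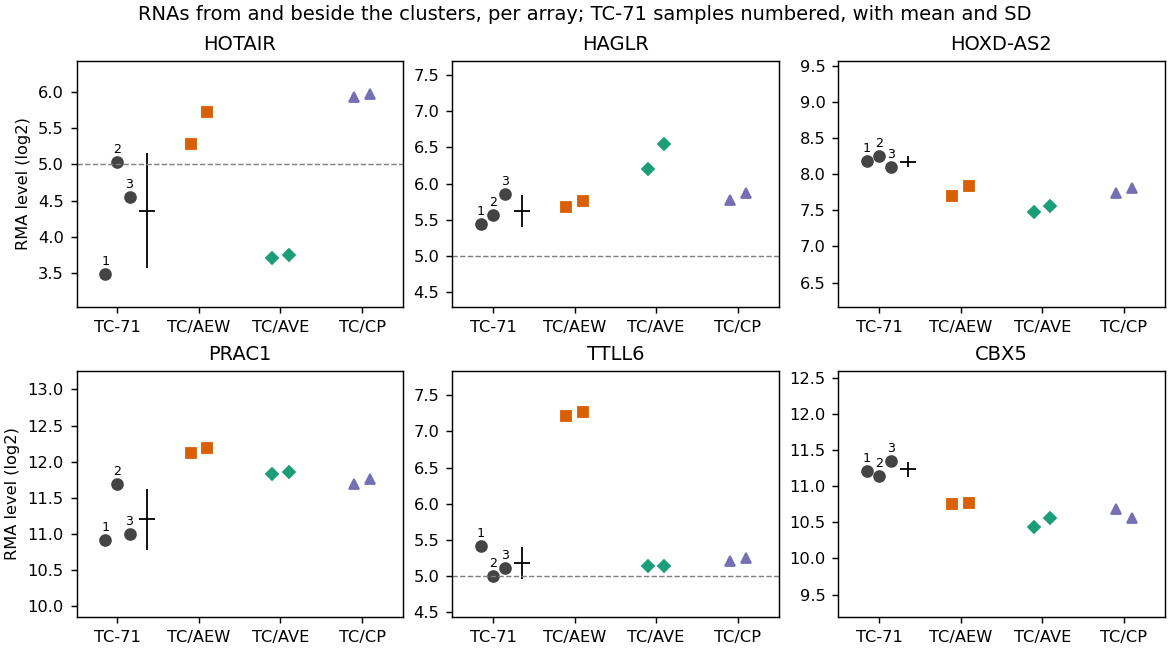
RMA level on the log2 scale (vertical axes) of HOTAIR, HAGLR, HOXD-AS2, PRAC1, TTLL6 and CBX5 on each array of TC-71 (numbered samples, with mean and SD) and the 3 lines (horizontal axes); a dashed line marks the level of 5 where a reading comes near it. TTLL6 reads 7.21 and 7.26 in TC/AEW and 5.00 to 5.42 on all other arrays.

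Genes that flank the clusters were listed too, and 0 of the 13 that reached 5 passed limma's test, with unadjusted counts of 2 in TC/AEW (3.52% of all genes), 1 in TC/AVE (7.23%) and 2 in TC/CP (4.93%). TTLL6, a tubulin-modifying enzyme whose gene is next to HOXB13 in RefSeq's order, read 5.42, 5.00 and 5.11 in TC-71, 7.21 and 7.26 in TC/AEW, 5.14 and 5.14 in TC/AVE, and 5.21 and 5.25 in TC/CP. TC/AEW alone was high, with a difference in signal of 2.06 ± 0.26 (limma's adjusted p = 0.670), and all other arrays read below the range of HBB. PRAC1, a prostate and colon gene on the other side of HOXB13, was named after its values were seen. It read 10.92, 11.69 and 11.00 in TC-71, 12.13 and 12.18 in TC/AEW, 11.83 and 11.86 in TC/AVE, and 11.69 and 11.76 in TC/CP. TC/AEW was highest, above the TC-71 mean by 0.95 ± 0.37, or 0.46 within the array set. TC/AEW was also the line with the highest summed level of fibroblast markers, whose part in these values was not tested. The chosen HOXB13 probe set was also highest in TC/AEW, and its second probe set was not.

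CBX5, the heterochromatin protein HP1 alpha, whose gene lies beyond HOXC4 to HOXC6, was likewise named after its values were seen. It read 11.21, 11.14 and 11.35 in TC-71, 10.75 and 10.77 in TC/AEW, 10.43 and 10.56 in TC/AVE, and 10.68 and 10.56 in TC/CP. All 6 line arrays lay below TC-71 (4.33% of all genes), with a difference of -0.61 ± 0.13 in common (limma's adjusted p = 0.298).

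Of 15 textbook targets of HOX proteins with a probe set, 14 reached 5 and 0 passed limma's test, with unadjusted counts of 1 in TC/AEW (3.52% of all genes), 3 in TC/AVE (7.23%) and 2 in TC/CP (4.93%). In TC/AVE 3 of the 14 were 2-fold or more above TC-71 and 1 below (3.68% of all genes in either direction). The counts were 2 above and 0 below in TC/CP (3.19%), and 0 either way in TC/AEW (2.22%). EPHA7, a guidance receptor, read 5.75, 6.02 and 6.33 in TC-71 and 4.32 and 4.67 in TC/AVE, a difference in signal of -1.54 ± 0.29 (limma's adjusted p = 0.393), with TC-71 near the range of HBB and TC/AVE under 5. BMP2, a bone growth factor, read 5.61, 5.51 and 5.96 in TC-71 and 6.64 and 6.93 in TC/AVE, higher in signal by 1.09 ± 0.26 (limma's adjusted p = 0.519), with TC-71 near or below HBB. RUNX2, the factor that directs bone formation, read 4.77, 6.66 and 6.13 in TC-71, 7.17 and 7.19 in TC/AVE, and 6.92 and 6.91 in TC/CP. FGF2, a growth factor, read 4.53, 6.02 and 5.74 in TC-71, 6.53 and 6.46 in TC/AVE, and 6.58 and 6.48 in TC/CP. In RUNX2 and FGF2 TC-71 sample 1 was again the lowest array, as in HOXB2, HOXB9 and HOXD8.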

How the data were processed

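RNA was measured on 9 arrays. The values were deposited by the authors as log2 levels per probe set, summarised by RMA and the affy software, per the submitters' processing notes, which name no version. Of 54675 probe sets, 62 controls were left out, 41091 had a single symbol in GEO's platform annotation, 1801 had several and 11721 none, and 41037 of the single ones matched RefSeq by gene ID. A gene was tested where at least 2 of 9 arrays read 5 or more, which kept 14172 genes. The 2 arrays of a line were averaged, giving 3 TC-71 samples and 3 lines. The labels do not say at which step these technical replicates were split.

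The test was that of limma 3.58.1 (R 4.3.3), with 4 groups for single lines (2 residual degrees of freedom) and 2 groups for the lines in common (4 residual degrees of freedom), and Benjamini-Hochberg adjustment over all genes tested. The members and lists were chosen with earlier results of these data known. All members at 5 were named, and list genes where a line or the lines in common differed by 1 log2 unit or more, at most 4 per list. Alternatives changed the filter, the probe set, the treatment of arrays, the normalization and the TC-71 samples.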

Additional observations from a re-analysis of the deposited data

How the results depend on the processing

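With 1 sample for each line, a lone line's own spread was not measured. The counts of HOX genes past limma's threshold stayed at 0 under every alternative tried except those that took the 9 arrays as separate samples, which treats technical replicates as independent. Without a replicate number these gave 1 gene in TC/AVE (HOXC6, adjusted p = 0.0324), 1 in TC/CP (HOXB4, 0.0118) and 3 in TC/AVE against TC/CP (HOXB6, 0.0127, HOXC6, 0.0350, and HOXB13, 0.0489). With the replicate block the counts were 1 in TC/CP (HOXB4, 0.0213) and 3 in TC/AVE against TC/CP (HOXB6, 0.0185, HOXB13, 0.0296, and HOXC6, 0.0440), and 0 in the others. The arrays share only a number, so the block pairs no samples. In TC/AVE against TC/CP, line and array set cannot be told apart.

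The count of HOX genes at 2-fold or more from TC-71 ranged from 0 to 1 when each TC-71 sample was left out in turn, for TC/AEW, for TC/CP and for the lines in common. The 1 came without sample 2 and was HOXB2, at 1.06, 1.21 and 1.07. Within the array set, the count was 1 in TC/AVE, which was HOXB6 at -1.04. The number of HOX genes at a level of 5 was 25, and 20 to 25 under the other probe-set and level rules tried. Over 24 alternatives, 2910 of 2971 recomputed differences of single HOX genes moved by less than 1 TC-71 SD, and 118 took the other sign. Several alternatives change only the filter or the test and leave a difference as it was, so this count does not measure stability. Taken within the array set, 27 of 75 differences moved by more than 1 TC-71 SD and 22 took the other sign.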
